A study of Papio anubis with 6 samples.

Results

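The genes described here are 5 globin genes and the chaperone of free alpha chains: HBG2 (gamma), HBE1 (epsilon), HBB (beta) and HBD (delta) of the beta-like family, HBM (mu) of the alpha-like family, and AHSP. They were taken by gene name from the 39023 genes listed in each of the comparison tables, and all 6 were tested in both. The cells were proerythroblasts, sorted as CD105+CD34-CD117+bRBC+ cells from bone marrow of baboons (Papio anubis). One group had received RN-1, an inhibitor of the histone demethylase LSD1 (KDM1A), by subcutaneous injection at 0.25 mg/kg/d for 3 d (short-term, n = 2), and another had received 0.25 mg/kg/d on 5 d/wk for more than 265 d (long-term, n = 2). The remaining samples were untreated controls (n = 2). The 2 animals that gave the controls also gave the short-term samples. A different pair of animals gave the long-term samples, and there the effects of treatment and animal cannot be told apart. No group carried a transgene or deletion, and the labels give no age or sex.

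Adult hemoglobin pairs alpha chains with beta chains, and fetal hemoglobin pairs alpha chains with gamma chains. Simian primates express the epsilon gene in the embryo, the gamma genes in the fetus and the beta gene after birth, and the gamma genes are then repressed. In human erythroid cells BCL11A and ZBTB7A, with corepressor complexes that can contain LSD1, hold the gamma genes silent in the adult. The products must also stay balanced, because unpaired alpha chains precipitate, and AHSP binds alpha chains until they meet a beta-like partner. In the RefSeq annotation of the baboon assembly Panubis1.0 the beta-like genes lie on chromosome 12 in the order HBB, HBD, HBG2 and HBE1. That assembly was used for names and gene order only, since the reads had been aligned to Panu_2.0.

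The RT-PCR assays that the study designed for the gamma and beta transcripts are shown because these are the transcripts on which the results turn. Each is written 5′ to 3′ with the primers in lower case and the reporter probe in capitals. The PCR values were not used here.
HBG forward primer: cggcaagaaggtgctcactt
HBG probe: CTTGGGAGATGCCG
HBG reverse primer: gcccttgagatcatccaggtt
HBB forward primer: gctggtggtctacccttgga
HBB probe: CCAGAGGTTCTTTGATTC
HBB reverse primer: aggagaggacagatccccaaa
The sequencing tables used here have 1 row for a gamma gene, HBG2, and no row named HBG1 or HBA2 was used. Globin copies can be nearly identical, so that reads shared between copies make the absolute levels of HBG2 and HBA1 uncertain.

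RNA was sequenced from the poly(A) end with a strand-specific kit that yields 1 fragment per transcript, so that levels do not scale with transcript length. Levels are in CPM (read counts scaled to library size) and were recovered from the authors' mean log2 CPM and log2 fold changes, since the tables hold no value per sample. Levels of different genes may still not be comparable. Among cytosolic ribosomal protein genes, RPL3 had 4.99 CPM and RPL27A 5722 CPM in the short-term controls, and the reason was not tested. Ratios between genes given below therefore describe reads counted, not numbers of transcripts. They are geometric means of 2 libraries in the short-term comparison and arithmetic means in the long-term comparison. The effective library sizes inferred from the tables were 4321077 and 5270058 reads for short-term RN-1 and 3372645 and 4278553 reads for the controls, while the 4 libraries in the long-term table averaged 3634195 reads. Standard errors and 95% intervals were back-calculated from each fold change and p-value. A gene was called at an adjusted p under 0.05, where each adjusted p given here comes from the authors' edgeR p-values by the Benjamini-Hochberg method over all genes tested. The proerythroblast markers KIT, TFRC, ENG, GATA1, KLF1, EPOR and TAL1 were all tested and 0 were called in the authors' edgeR test. At an unadjusted p under 0.05 there was 1, TAL1, in each comparison. Over all genes tested 0.495% short-term and 0.663% long-term were called increased, 0.153% and 0.106% decreased, and 7.1% and 5.41% reached that unadjusted level. So few genes with 0 called do not show that the markers were unchanged. TAL1 had 82.4 CPM in short-term RN-1 samples and 38.7 CPM in controls, and 79.7 CPM in long-term RN-1 samples and 41.3 CPM in controls (log2 fold changes 1.09 and 0.95). TFRC, the transferrin receptor, had 1355 CPM in short-term RN-1 samples and 1193 CPM in controls, and 1383 CPM in long-term RN-1 samples and 1195 CPM in controls. KIT, the CD117 antigen used in the sort, had 238 CPM in short-term RN-1 samples and 219 CPM in controls, and 218 CPM in long-term RN-1 samples and 222 CPM in controls.

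The gamma gene HBG2 rose with both regimens and HBB, the adult beta gene, fell with the short-term regimen. HBG2 was 10.9-fold higher after 3 d (95% interval 7.61 to 15.7) and 6.21-fold higher after the long-term schedule (2.37 to 16.2). HBB fell by 47.1% after 3 d. Of the 6 genes 1 was called increased and 1 decreased after 3 d, where 0.495% and 0.153% of all genes tested were called in those directions. In the long-term comparison 1 was called increased and 0 were called decreased in the authors' edgeR test, against 0.663% and 0.106% of all genes tested. At an unadjusted p under 0.05 there were 4 of the 6 in the short-term comparison, where 7.1% of all genes reached that level, and 2 of the 6 in the long-term comparison, where 5.41% did. The median log2 fold change of the 6 genes was -0.36 short-term and -0.54 long-term, against 0.01 and 0.05 over all genes tested.

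**Figure D1:**
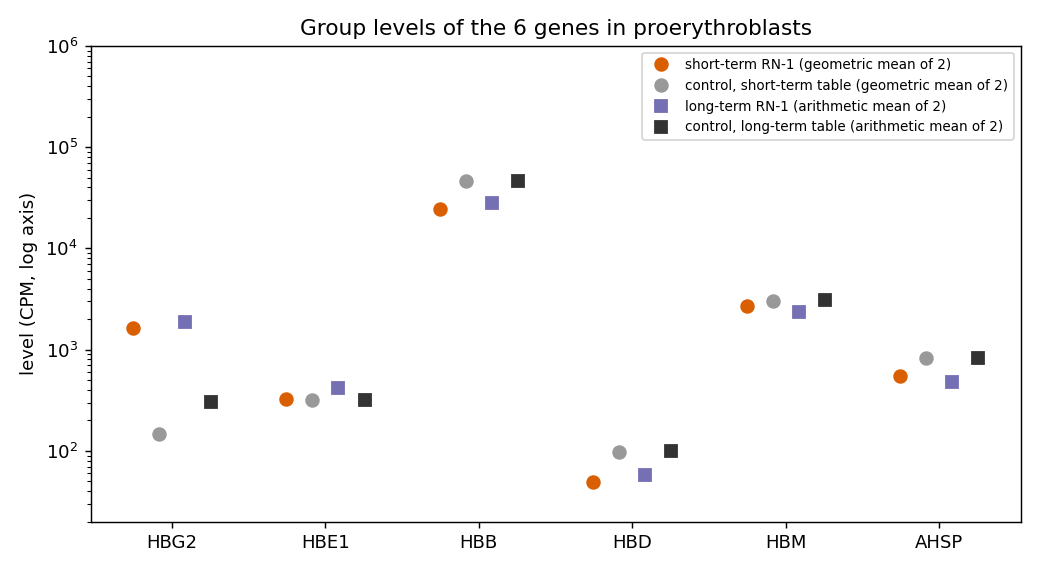
Level in CPM (log axis) of each gene in short-term RN-1, its control, long-term RN-1 and its control; circles are geometric and squares arithmetic means of 2 libraries. HBG2 stands above its control with both regimens (1621 and 1886 CPM), and the 2 control marks of HBG2 lie apart (148 and 304 CPM) while those of the other 5 genes almost coincide.

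HBG2 had 1621 CPM in short-term RN-1 samples, against 148 CPM in untreated controls. The log2 fold change was 3.45 (standard error 0.27, 95% interval 2.93 to 3.97, adjusted p = 1.1e-34), the rank 2 of 16355 genes by p-value. Among the 707 genes whose mean log2 CPM was 8 or more no other gene had as high a value. With the long-term schedule HBG2 had 1886 CPM in RN-1 samples, against 304 CPM in controls. There the log2 fold change was 2.63 (standard error 0.71, 95% interval 1.25 to 4.02, adjusted p = 0.029), at rank 122 of 17942 genes by p-value. Of the 720 genes whose mean log2 CPM was 8 or more long-term, 2, HBG2 included, were as high or higher. The long-term call was lost at a threshold of 0.01 and with the Benjamini-Yekutieli adjustment. The long-term minus short-term difference in log2 fold change was -0.81 (conservative 95% interval -2.72 to 1.09), an interval that includes 0.

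The long-term fold of HBG2 depended on how the controls were averaged. The same 2 control libraries had a gamma level of 304 CPM as an arithmetic mean and 148 CPM as a geometric mean, a log2 difference of 1.03. If both tables rest on the same control counts, these means fix the ratio of the controls at 14.7 (12.5 to 17.2 when the difference is moved by 2 SD of that seen over genes), and the control levels at 569 and 38.7 CPM. Which animal had the higher level is not given by these tables. The paper reports that the control animals differed in baseline HbF, a protein measure. By that measure the long-term animals were closer to the control animal with the lower value. Whether HBG2 levels in the controls followed baseline HbF was not tested. Of the 4655 genes whose mean log2 CPM was 5 or more in each table HBG2 had the largest implied ratio of controls. The next ratio was 13.7, the median was 1.27, and 45 genes reached a ratio of 3. Against the implied controls the long-term mean of 1886 CPM was 3.31-fold the higher one and 48.7-fold the lower one. Against the geometric control mean this arithmetic mean was 12.7-fold higher (log2 3.67), next to 2.63 in the table itself.

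**Figure D2:**
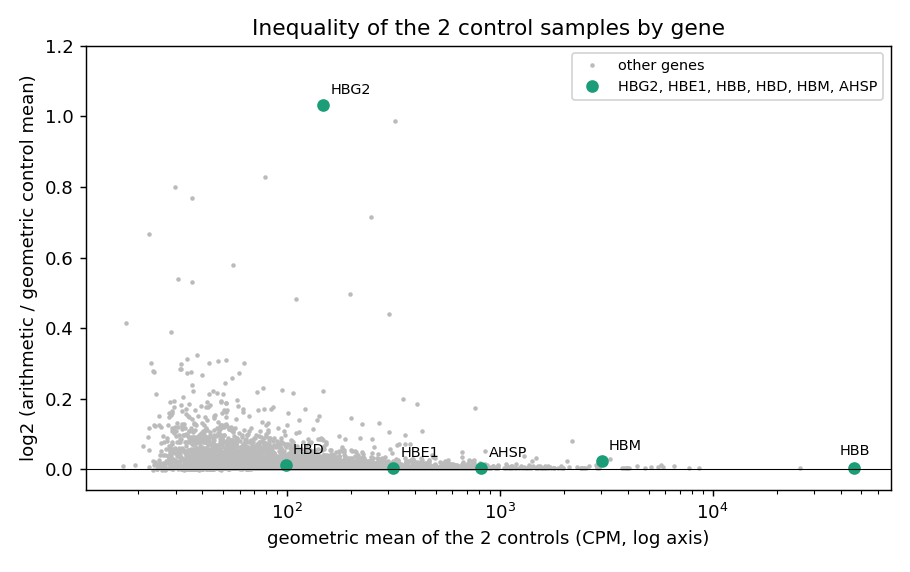
Each point is 1 of the 4655 genes at a mean log2 CPM of 5 or more; the horizontal axis is the geometric mean of the 2 controls (CPM, log axis), the vertical axis the log2 of arithmetic over geometric control mean, which is 0 when the controls are equal. HBG2 has the highest value, 1.03, and the other 5 genes lie near 0.

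For the other 5 genes the implied ratio of the controls was close to 1. It was 1.14 for HBE1, 1.13 for HBB, 1.29 for HBD, 1.44 for HBM and 1.14 for AHSP. With the difference between the tables moved up by 2 SD these ratios became 2.16, 2.16, 2.23, 2.33 and 2.16, so that ratios below about that size cannot be resolved by this comparison. The inequality of the control samples at the gamma gene was therefore not seen at its neighbours HBD and HBE1 within this limit.

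HBE1, the embryonic gene of the cluster, did not pass the test with either regimen. It had 328 CPM in short-term RN-1 samples and 317 CPM in controls (log2 fold change 0.05, 95% interval -0.42 to 0.52, adjusted p = 0.98). After the long-term schedule it had 418 CPM in RN-1 samples and 317 CPM in controls (log2 fold change 0.40, 95% interval -0.32 to 1.12, adjusted p = 1). Its controls exceeded the geometric control level of HBG2 and were of about the size of the arithmetic one. With RN-1 HBG2 stood above HBE1 in both regimens.

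HBB was the gene with the highest mean level in both tables. It had 24406 CPM in short-term RN-1 samples, against 46113 CPM in controls, a log2 fold change of -0.92 (standard error 0.20, 95% interval -1.31 to -0.53, adjusted p = 0.0013). This call was lost where a log2 fold change of at least 1 was required, and with the scale centred on ribosomal protein genes the adjusted p was 0.048. Among the 707 genes whose mean log2 CPM was 8 or more, 1 other gene had a value as low. Long-term, HBB had 28175 CPM in RN-1 samples and 46202 CPM in controls. Its log2 fold change of -0.71 there (95% interval -1.44 to 0.01) did not pass (adjusted p = 0.96), and 15 of 720 genes at that level, HBB included, were as low or lower. The difference between the regimens was 0.20 (conservative 95% interval -0.91 to 1.32), so that the regimens were not shown to differ. In these sorted bulk samples fewer cells of a type and less RNA per cell cannot be told apart.

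HBD, which in humans gives the minor adult beta-like chain of HbA2, had far fewer reads than HBB. Its level was 49.1 CPM in short-term RN-1 samples and 98.6 CPM in controls, and 57.6 CPM in long-term RN-1 samples and 99.4 CPM in controls. The log2 fold changes of -1.004 (95% interval -1.71 to -0.30, adjusted p = 0.30) and -0.79 (-1.72 to 0.14, adjusted p = 1) did not pass. They differed from those of HBB by -0.09 and -0.07, much less than the standard error of either gene.

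**Figure D3:**
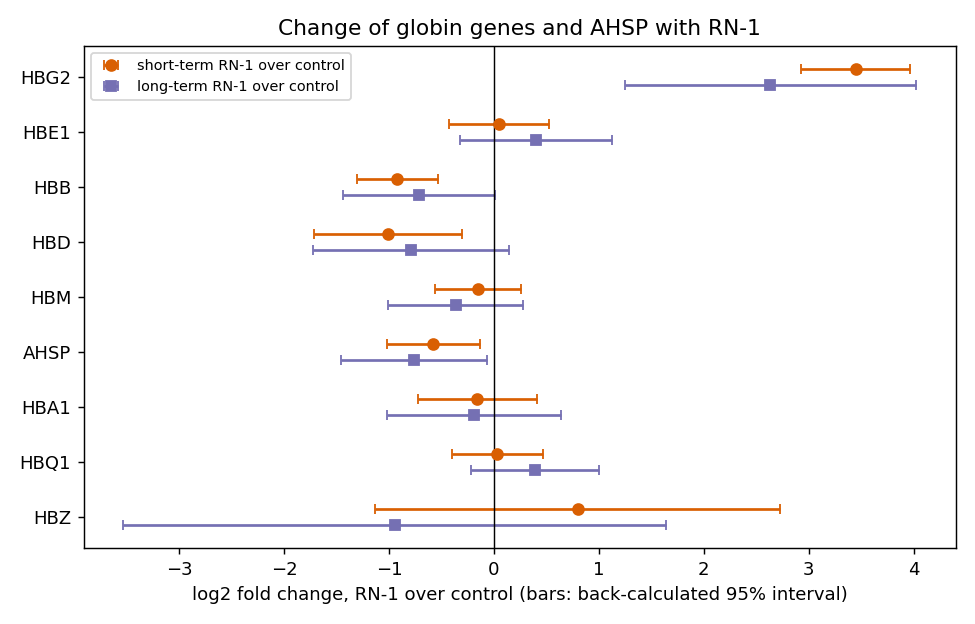
Log2 fold change of RN-1 over control for the 6 genes and for HBA1, HBQ1 and HBZ, with back-calculated 95% intervals. HBG2 lies to the right of 0 with both regimens (3.45 and 2.63), HBB lies to the left after 3 d (-0.92), and the interval of HBZ is the widest.

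The reads counted for gamma and beta were set against each other within a group. HBG2 made up 6.23% of HBG2 plus HBB in short-term RN-1 samples (95% Wilson interval 6.13 to 6.32), against 0.321% in controls (0.303 to 0.340), both from geometric means. With arithmetic means, as in the long-term table, the share was 6.27% in RN-1 samples (6.17 to 6.38) and 0.653% in controls (0.627 to 0.681). The intervals rest on gamma reads estimated as group level times library size. Geometric means gave 15550 in short-term RN-1 samples and 1136 in controls. Arithmetic means gave 13710 in long-term RN-1 samples and 2209 in controls. Both control values describe the same 2 libraries. A geometric mean times library size is not a count of reads, so the short-term intervals are approximate. At most the intervals cover counting error, and reads amplified by PCR without molecular identifiers are not independent molecules. With 2 samples a group and no value per sample, the spread between animals could not be added to the intervals. If both comparisons rest on the same control counts, the implied ratio of the 2 controls was 14.7 at HBG2 and 1.13 at HBB. The control share then differed between animals by far more than its intervals.

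**Figure D4:**
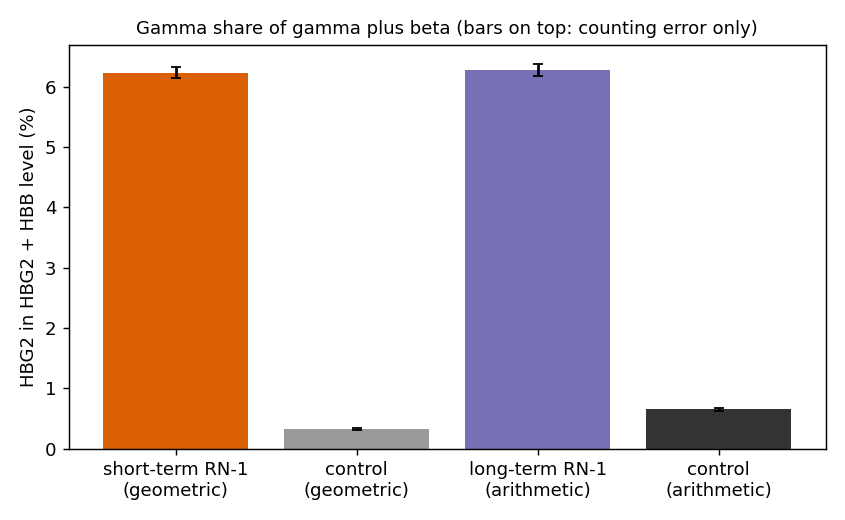
Bars give HBG2 as a percent of HBG2 plus HBB for short-term RN-1, its control, long-term RN-1 and its control. Error bars give the 95% Wilson interval of the estimated reads (counting error only), without the spread between animals. The 2 control bars describe the same 2 libraries, by geometric and by arithmetic means. Both RN-1 bars stand at 6.23% and 6.27%, against 0.321% and 0.653% in the controls.

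The ratio of gamma to beta was 20.6-fold higher in short-term RN-1 than in control samples and 10.2-fold higher in long-term RN-1 than in control samples. The first value rests on geometric and the second on arithmetic control means. Against the geometric control means, with the long-term RN-1 levels kept as arithmetic means, the long-term ratio was 20.8-fold higher. That value mixes 2 kinds of mean, so its closeness to 20.6 is no comparison of the regimens. The gap between 20.6 and 10.2 depends on the kind of mean and does not separate the regimens. The larger contribution came from HBG2 (log2 fold changes 3.45 and 2.63) and the smaller one from HBB (-0.92 and -0.71). No error is given for these ratios because the tables do not hold the covariance of the genes. In CPM the difference at gamma was small beside that at beta. HBG2 was higher by 1473 CPM in short-term RN-1 than in control samples, while HBB differed by -21707 CPM, so that the gamma difference was 6.79% of the size of the beta difference. Long-term, HBG2 was higher by 1582 CPM and HBB differed by -18027 CPM, and the gamma difference was 8.78% of that size.

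The 4 beta-like genes together had 26405 CPM in short-term RN-1 samples and 46677 CPM in controls, and 30537 CPM in long-term RN-1 samples and 46922 CPM in controls. Within this sum HBB made up 92.4% in short-term RN-1 and 98.8% in controls, and 92.3% in long-term RN-1 and 98.5% in controls. HBE1 made up 1.24% and HBD 0.186% of the sum in short-term RN-1 samples, against 0.678% and 0.211% in their controls. The long-term samples had 1.37% HBE1 and 0.189% HBD, against 0.676% and 0.212% in their controls. These sums are descriptions of the recovered levels, without a test.

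On the alpha-like side HBM, whose mu transcript belongs to the alpha-globin cluster, was among the genes with the highest levels (rank 21 short-term and 23 long-term). It had 2716 CPM in short-term RN-1 samples and 3015 CPM in controls (log2 fold change -0.15, 95% interval -0.56 to 0.26, adjusted p = 0.82). When the scale was centred on ribosomal protein genes this value became 0.08, so that no direction is given. Long-term, it had 2379.9 CPM in RN-1 samples and 3065 CPM in controls (log2 fold change -0.36, 95% interval -1.01 to 0.28, adjusted p = 1).

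The other globin genes named in the tables did not pass either. HBQ1, the theta gene of the alpha cluster, had 858 CPM in short-term RN-1 samples and 838 CPM in controls, and 1101 CPM in long-term RN-1 samples and 840.4 CPM in controls. HBA1, an alpha gene, had 136 CPM in short-term RN-1 samples and 151 CPM in controls, and 133 CPM in long-term RN-1 samples and 152 CPM in controls. It was thus lower than HBM and HBQ1 in these tables, and whether reads of near-identical alpha copies were left out or counted elsewhere was not tested. HBZ, the embryonic zeta gene, had 13.1 CPM in short-term RN-1 samples and 7.502 CPM in controls, and 4.47 CPM in long-term RN-1 samples and 8.63 CPM in controls. Its intervals (log2 -1.13 to 2.73 and -3.53 to 1.64) were too wide to give a direction.

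The sum of HBM, HBQ1, HBA1 and HBZ was 3723 CPM in short-term RN-1 samples and 4012 CPM in controls, and 3619 CPM in long-term RN-1 samples and 4066 CPM in controls. The beta-like sum was 7.09 times this alpha-like sum in short-term RN-1 samples and 11.6 times in controls, and 8.44 times in long-term RN-1 samples and 11.5 times in controls. This ratio is no measure of chain balance in the cell. Of the genes that the tables name as alpha, HBA1 alone is in the sum, and loci without annotation are not. Among these is the gene with the second highest level, LOC101020792, at 24820 CPM in short-term RN-1 samples and 25807 CPM in controls. Whether an unannotated locus carries alpha-like reads was not tested, and the ratio would be much lower if one of that level did.

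AHSP, the chaperone that holds free alpha chains, had 549 CPM in short-term RN-1 samples and 818 CPM in controls (log2 fold change -0.58, standard error 0.23, 95% interval -1.02 to -0.13, adjusted p = 0.42). Long-term, it had 484 CPM in RN-1 samples and 819.9 CPM in controls (log2 fold change -0.76, standard error 0.35, 95% interval -1.45 to -0.07, adjusted p = 0.79). Both intervals lie below 0 but neither value passed over all genes tested. The log2 fold change of AHSP minus that of HBB was 0.34 short-term and -0.05 long-term. The beta-like sum was 48.1 times AHSP in short-term RN-1 samples and 57.0 times in controls, and 63.1 times in long-term RN-1 samples and 57.2 times in controls. HBM was 4.95 times AHSP in short-term RN-1 samples and 3.69 times in controls, and 4.92 times in long-term RN-1 samples and 3.74 times in controls.

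Across the regimens the 6 genes could not be separated. The conservative 95% interval of the difference in log2 fold change, long-term minus short-term, was -0.85 to 1.55 for HBE1, -1.42 to 1.85 for HBD, -1.27 to 0.84 for HBM and -1.32 to 0.95 for AHSP. Intervals of this width leave room for differences of more than 1 on the log2 scale in either direction for HBD, and in 1 direction for HBE1, HBM and AHSP. Both comparisons share the controls.

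Of the list of regulators of the gamma genes, 33 were tested short-term and 34 long-term, and in each comparison 1 was called increased and 0 decreased. Over all genes tested 0.495% short-term and 0.663% long-term were called increased, and 0.153% and 0.106% decreased. At an unadjusted p under 0.05 there were 3 in each, where 7.1% and 5.41% of all genes tested reached that level. The median log2 fold change of those at a mean log2 CPM of 2 or more was 0.06 (32 genes) and 0.15 (33 genes), against 0.00 and 0.01 over all genes at that level. The called gene was GFI1B, a zinc finger repressor that recruits LSD1. It had 286 CPM in short-term RN-1 samples and 112 CPM in controls (log2 fold change 1.35, adjusted p = 0.00032), and 352 CPM in long-term RN-1 samples and 112 CPM in controls (log2 fold change 1.65, adjusted p = 0.00058).

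The repressors named above did not pass. BCL11A had 542 CPM in short-term RN-1 samples and 638 CPM in controls, and 487 CPM in long-term RN-1 samples and 639 CPM in controls, the lowest log2 fold change of the list there (-0.39, adjusted p = 1). ZBTB7A had log2 fold changes of -0.17 and -0.12, and KLF1, an activator of HBB, -0.26 and -0.13. KDM1A, the target of RN-1, had 116 CPM in short-term RN-1 samples and 110.2 CPM in controls, and 124 CPM in long-term RN-1 samples and 111 CPM in controls (adjusted p = 0.97 and 1). Among the 32 regulators at a mean log2 CPM of 2 or more the lowest value short-term was that of BACH1, a heme-regulated repressor. It had 11.6 CPM in RN-1 samples and 21.8 CPM in controls (log2 fold change -0.91, adjusted p = 0.73). IGF2BP1, below that level, had a lower log2 fold change of -2.15 short-term (adjusted p = 0.73). Its level was 1.19 CPM in short-term RN-1 samples and 5.48 CPM in controls.

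Of 39 terminal erythroid genes tested, 1 was called increased and 0 decreased in each comparison, with 10 short-term and 6 long-term at an unadjusted p under 0.05 (7.1% and 5.41% of all genes tested). The shares called over all genes were 0.495% and 0.663% increased and 0.153% and 0.106% decreased. The median log2 fold change of the 37 at a mean log2 CPM of 2 or more was -0.07 short-term and 0.05 long-term, against 0.00 and 0.01 over all genes at that level. The called gene was BNIP3L, which marks mitochondria for autophagy, at 236 CPM in short-term RN-1 samples and 93.9 CPM in controls (adjusted p = 0.00096), and at 351 CPM in long-term RN-1 samples and 99.1 CPM in controls (adjusted p = 0.00031). Among the 37 the lowest log2 fold change short-term was -0.86 for TSPO2, a membrane protein of the translocator family (adjusted p = 0.21). Long-term it was -0.98 for FAM210B, a mitochondrial protein of heme synthesis (adjusted p = 0.15). SELENBP1, below that level, had -4.06 short-term and -4.79 long-term, with 0.912 and 0.953 CPM in controls, and was not called.

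Of 19 genes of globin protein quality control tested, which fold, protect or degrade proteins or respond to stress, 0 were called in either comparison of the authors' edgeR analysis, with 1 short-term and 3 long-term at an unadjusted p under 0.05 (7.1% and 5.41% of all genes tested). The shares of all genes tested that were called were 0.495% and 0.663% increased and 0.153% and 0.106% decreased. The median log2 fold change was -0.13 short-term and -0.14 long-term, against the same 0.00 and 0.01. PPP1R15A, a phosphatase subunit of the stress response, had the highest values (0.58, adjusted p = 0.53, and 0.78, adjusted p = 0.55). The lowest were those of PRDX2, a peroxidase of red cells, short-term (-0.64, adjusted p = 0.70) and of HSPA4, a heat shock protein, long-term (-1.04, adjusted p = 0.29).

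**Figure D5:**
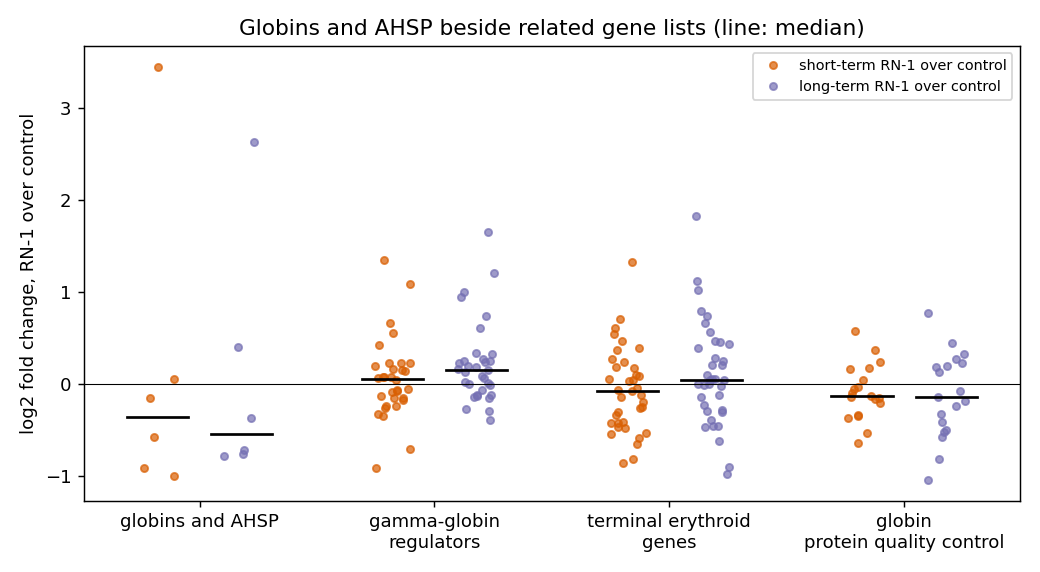
Log2 fold change of RN-1 over control for each gene of 4 lists (the 6 globin and AHSP genes, gamma-globin regulators, terminal erythroid genes, globin protein quality control), for genes at a mean log2 CPM of 2 or more, with a line at the median. HBG2 (3.45 and 2.63) lies above every gene of the other lists shown, the highest of which is BNIP3L long-term (1.83).

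The genes around the globin clusters were also looked up. Of the list of neighbours of the beta cluster, 4 were tested, and TRIM21, an antibody receptor and ubiquitin ligase, was called decreased short-term at 7.40 CPM in RN-1 samples and 38.5 CPM in controls (log2 fold change -2.37, adjusted p = 0.045). Over all genes tested short-term 0.153% were called decreased. Long-term it had 13.5 CPM in RN-1 samples and 39.5 CPM in controls (log2 fold change -1.54, adjusted p = 0.51). Among the 3 at a mean log2 CPM of 2 or more the highest value was that of RRM1, a subunit of ribonucleotide reductase. Its log2 fold changes were 0.06 and 0.04. TRIM6, below that level, had log2 fold changes of 4.99 short-term (adjusted p = 0.70) and 2.46 long-term. It had 1.78 CPM in short-term RN-1 samples, 0.142 CPM in long-term RN-1 samples and 0 CPM in controls. Of 6 olfactory receptor genes that lie beside the beta-like genes in Panubis1.0, all were listed and 0 were tested in either comparison. Of the neighbours of the alpha cluster, 8 short-term and 9 long-term were tested and 0 were called in the authors' edgeR tests (0 and 1 at an unadjusted p under 0.05). Over all genes tested 7.1% and 5.41% reached that unadjusted level. Among the 5 at a mean log2 CPM of 2 or more the extremes were ITFG3 (log2 fold changes 1.77, adjusted p = 0.70, and 2.12, adjusted p = 0.48), POLR3K short-term (-0.77) and AXIN1 long-term (-0.71). Genes below that level reached further, such as NPRL3 (-1.17 short-term and 4.41 long-term) and RHBDF1 (1.46 and 6.38).

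Marker genes of other cell types in the marrow were read in the same tables. The stem and early progenitor markers tested (4 of 7, without CD34) summed to 198 CPM in short-term RN-1 samples and 55.5 CPM in controls, and to 266 CPM in long-term RN-1 samples and 56.5 CPM in controls, and SOX4 and GATA2 were called increased in both. SOX4 alone gave 189 CPM in short-term RN-1 samples and 251 CPM in long-term RN-1 samples of these sums. MEIS1 had 1.02 CPM in short-term RN-1 samples and 1.95 CPM in controls, and 1.16 CPM in long-term RN-1 samples and 2.10 CPM in controls, and HLF was below 0.2 CPM in every group. Neither was called. Monocyte and macrophage markers (6 of 11 tested short-term, 9 long-term, 0 called in the authors' edgeR tests, 1 at an unadjusted p under 0.05 in each) summed to 5.70 CPM in short-term RN-1 samples and 0.412 CPM in controls, and to 25.6 CPM in long-term RN-1 samples and 1.38 CPM in controls, where 4 of those tested short-term and 7 of those tested long-term had no reads. Mast cell and basophil markers (2 of 6 tested) summed to 4.34 CPM in short-term RN-1 samples and 43.2 CPM in long-term RN-1 samples and both, HDC and ENPP3, were at 0 in controls and were called increased long-term. Granulocyte, megakaryocyte and lymphoid markers stayed below 7 CPM in sum in every group. Over all genes tested 0.495% short-term and 0.663% long-term were called increased. SOX4 and GATA2 and the monocyte and mast cell sums moved with the rise of HBG2 and the lower HBB, and their part in those results was not tested.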

How the data were processed

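Proerythroblast RNA from 2 short-term RN-1, 2 long-term RN-1 and 2 control samples was grouped by the sample labels. Alignment by the authors was to Panu_2.0 (BWA MEM), counting used featureCounts, and the authors' comparisons used edgeR (versions not given in the sources used here), with animal and condition in the short-term model and a pair-wise exact test for the long-term samples. The deposited tables hold log2 fold changes and mean log2 CPM values, and the authors' p-values and q-values. They hold no values per sample (unmapped per-sample columns: 0). Pathway columns were not used. The planned test allowed for counts or comparison tables, and no count model was run here.

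Benjamini-Hochberg adjustment of the deposited p-values was repeated over the 16355 and 17942 genes tested. The largest difference to the deposited q-values was 1.6e-14. Group levels were recovered from the mean level and fold change with default prior counts (0.25 short-term; 0.125 and 2 long-term), which are assumed. Standard errors assume a normal statistic. The interval between regimens adds both standard errors. The samples of a group came from separate animals, and precision is limited by their number (2 a group) and by the inferred library sizes. Calculations used Python 3.11.15 with numpy 2.4.6, pandas 2.3.3, scipy 1.17.1 and matplotlib 3.10.9. The recovery of levels, standard errors and calls was tested on data simulated under the same prior counts and normal statistic. That test is therefore no check of those assumptions.

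Named were the 6 genes, every other globin gene found, the called genes and the highest and lowest log2 fold change (mean log2 CPM of at least 2) of each list, and the 5 genes nearest to HBG2 and to HBB over the 2 log2 fold changes (mean log2 CPM of at least 5). 1 proerythroblast marker is not reported here. Other regulators were named for their known role after their values had been seen. The members and lists were chosen with earlier results of these data known. Alternatives were thresholds of 0.01 and 0.1, a minimum log2 fold change of 1, minimum levels of 0 and 2, the Benjamini-Yekutieli method, centring on all genes or ribosomal proteins, other averages of the controls, and other denominators and prior counts of the gamma share.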

Additional observations from a re-analysis of the deposited data

How the results depend on the processing

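Of 51 alternatives, 42 kept the direction and the side of the threshold or stayed within the error. HBB was lost short-term when a log2 fold change of at least 1 was required, which left 1 gene called. HBG2 was lost long-term at a threshold of 0.01 and with the Benjamini-Yekutieli method, which left 0 called from the authors' edgeR p-values in each case (2 of the 6 at an unadjusted p under 0.05). Centring on ribosomal proteins, whose median log2 fold change was -0.23 short-term and -0.21 long-term, gave HBM short-term a log2 fold change of 0.0778 in place of -0.15, and the other 23 centred values kept direction and call when p-values were recalculated from the back-calculated standard errors over all genes, with HBB short-term at an adjusted p of 0.048 after centring on ribosomal proteins. Against the geometric control mean, an alternative chosen after seeing the data, the long-term log2 fold change of HBG2 was 3.67. The long-term fold of gamma over beta was then 20.8 in place of 10.2. In both values the RN-1 levels stayed arithmetic means. The planned change to geometric means gave a control share of gamma of 0.321% in place of 0.653%. Moving the difference between the tables by 2 SD gave ratios of the controls at HBG2 of 12.5 and 17.2. No paired analysis was possible because the tables hold no value per sample, and the short-term model already had animal in it. Leaving out each replicate was not run for the same reason, so whether 1 animal carries a result was not tested. The 38.7 CPM implied for the lower control, HBD and HBZ rest on the fewest reads.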

Other observations

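The genes nearest to HBG2 by distance over both log2 fold changes were CHST1 (2.97 short-term and 2.39 long-term), LYN (2.77 and 2.82), TANC1 (2.65 and 3.06), TNRC18 (2.43 and 2.60) and an unnamed locus, LOC100999343 (2.27 and 2.56), among the 4655 genes whose mean log2 CPM was 5 or more in each table. Both comparisons share the controls. CHST1, a carbohydrate sulfotransferase, had 406 CPM in short-term RN-1 samples and 51.9 CPM in controls, and 288 CPM in long-term RN-1 samples and 54.7 CPM in controls. LYN, a kinase of the SRC family, had 217 CPM in short-term RN-1 samples and 31.9 CPM in controls, and 255 CPM in long-term RN-1 samples and 36.1 CPM in controls. The genes nearest to HBB were EMG1, LOC101018564, VRK3, WDR61 and CCBL1, and 0 of these passed the authors' edgeR test in either comparison. Over all genes tested 0.153% short-term and 0.106% long-term were called decreased, so that 0 called among so few is no result about these genes. Each of them lay within 0.1 of HBB but at a control level of at most 110 CPM.

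The gene with the second highest level, LOC101020792, has no annotation in the sources used here. It had 24820 CPM in short-term RN-1 samples and 25807 CPM in controls, and 20600 CPM in long-term RN-1 samples and 25853 CPM in controls, with log2 fold changes of -0.06 and -0.33 (adjusted p = 0.97 and 1). In short-term RN-1 samples its level was close to that of HBB, which in the controls stood well above it. CYGB, cytoglobin, had 0.437 CPM in short-term RN-1 samples and 4.48 CPM in controls, and 1.46 CPM in long-term RN-1 samples and 5.32 CPM in controls (adjusted p = 0.70 and 1). MB, myoglobin, was near 0 in every group. Of 74 cytosolic ribosomal protein genes, 0 were called in the authors' edgeR test short-term (4 at an unadjusted p under 0.05) and 1, RPS15, was called increased long-term, with 368 CPM in RN-1 samples and 75.6 CPM in controls. Over all genes tested 7.1% had an unadjusted p under 0.05 short-term, and 0.663% were called increased long-term.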
